A study of Mus musculus with 8 samples.

Results

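Epithelial identity is set in part by a small group of nuclear regulators, and the 10 described here are Ehf, Elf3 and Elf5 of the ETS family, the Grainyhead-like genes Grhl1, Grhl2 and Grhl3, the splicing regulators Esrp1 and Esrp2, and the zinc finger genes Ovol1 and Ovol2. They were chosen by gene symbol, with earlier results of these data known, and all 10 were found among the 55487 genes of the count table. RNA had been sequenced from C57BL/6 mouse testis cells sorted as germ cells, in 4 libraries labelled WT and 4 labelled KO. The WT label stands for littermates carrying the Oct4-eGFP reporter on both alleles, and the KO label for Rhox10-null fetuses with the same reporter, so that the reporter was shared by both groups. The reporter places a fluorescent protein under the control of Oct4 (Pou5f1), a pluripotency gene that fetal germ cells express; how the sort was gated is not given in the sources used here. The fetal age, the part of Rhox10 that the null allele lacks and whether each library stands for another animal are not given there either, and the p-values therefore cover no more than the spread of these libraries, which may be technical.

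Ehf, Elf3 and Elf5 encode ETS factors with largely epithelial expression, and Elf5 is best known from trophoblast and mammary gland. Grainyhead-like proteins activate genes of cell adhesion and tight junctions, Cdh1 and claudin genes among them, and Grhl2 and Grhl3 are needed for closure of the mouse neural tube. Esrp1 and Esrp2 proteins bind pre-mRNA and favour the epithelial exons of transcripts such as Fgfr2 and Cd44, while Ovol1 and Ovol2 proteins repress genes of the mesenchymal state, Zeb1 being a known target of Ovol2. Members of the Zeb and Snai families oppose the group by repressing epithelial genes. In the testis of the mouse, Ovol1 is also known for a role in meiotic germ cells.

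The libraries held 16346977 to 20311338 counts, and 23190 genes had enough reads to be tested. The first principal component, with 29.4% of the variance, separated the labels, and KO replicate 1 lay apart from the other libraries on the second. Rhox10 itself had 17 to 25 counts with the WT label and 10 to 22 with the KO label (log2 fold change -0.28, edgeR adjusted p = 0.767), so its counts do not settle the labels. Transcripts of other testis cells were abundant in a sort labelled as purified germ cells. Per kilobase of transcript, the germ-cell helicase gene Ddx4 was at 14.8 ± 1.13 RPKM with the WT label, the Leydig cell gene Cyp17a1 at 474 ± 4.29, the Sertoli cell gene Amh at 84.5 ± 2.87 and the fibroblast collagen gene Col1a1 at 451 ± 6.35 (SD, n = 4); these 4 genes were picked after their values had been seen. A level measured here is therefore that of a mixture, in which fewer cells of a type and less RNA per cell cannot be told apart.

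The 10 genes lie on 7 chromosomes (GRCm38). Ehf (ENSMUSG00000012350, chr2:103263433-103303278, minus strand) and Elf5 (ENSMUSG00000027186, chr2:103411688-103450989, plus strand) are neighbours with 108409 bases and no other protein-coding gene between them. Elf3 (ENSMUSG00000003051) spans chr1:135253575-135258568, Grhl1 (ENSMUSG00000020656) chr12:24572283-24617391, Grhl2 (ENSMUSG00000022286) chr15:37233036-37363569 and Grhl3 (ENSMUSG00000037188) chr4:135541888-135573630. Esrp1 (ENSMUSG00000040728) spans chr4:11331933-11386783, Esrp2 (ENSMUSG00000084128) chr8:106130319-106136974, Ovol1 (ENSMUSG00000024922) chr19:5549136-5560646 and Ovol2 (ENSMUSG00000037279) chr2:144305175-144332146. Exons of 5 of the 10 overlap exons of genes on the opposite strand. The overlap took 19.8% of the exonic length of Ovol1 for the pseudogene Gm31166 and 17.0% of that of Ovol2 for the antisense gene 1700108N11Rik, which had 1 count over all libraries. It took 7.31% of Elf3, 5.05% of Esrp2 (with Nfatc3) and 1.96% of Grhl2. Whether the counting used strand is not stated, so reads in these stretches may belong to either gene.

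RefSeq promoter windows, 250 bases before to 50 after a start site on GRCm38.p6, were at hand for Elf3, Elf5, Grhl1, Grhl3 and Ovol2, in 7 windows. They were searched on both strands for ACCGGT, the core of the Grainyhead-like site, the ETS sites CAGGAAG and CCGGAAG, the OVOL site CCGTTA and the E-box CACCTG that Zeb and Snai proteins bind. The first 4 matched in none of the 7 windows, against 2.33%, 13.3%, 8.86% and 2.76% of all 32851 windows of the same length. The E-box matched in 4 of the 7, against 20.2% of all windows, once in Elf3, 3 times in the first and once in the second window of Elf5 and 2 times in Grhl3. A match is a run of letters and not a measured site. The windows of Elf3, which rose, of Elf5 and Grhl3, which did not pass, and of Ovol2 are shown 5′ to 3′ on the gene's strand, with the E-box letters, on either strand, in capitals.
Elf3 (chr1:135258423-135258722, minus strand): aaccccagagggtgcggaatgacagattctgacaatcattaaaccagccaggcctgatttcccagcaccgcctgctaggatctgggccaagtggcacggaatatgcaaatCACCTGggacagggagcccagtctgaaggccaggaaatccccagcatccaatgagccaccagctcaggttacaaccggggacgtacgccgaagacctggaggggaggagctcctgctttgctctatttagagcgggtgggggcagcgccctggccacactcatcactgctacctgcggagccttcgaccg
Elf5, first window (chr2:103411848-103412147, plus strand): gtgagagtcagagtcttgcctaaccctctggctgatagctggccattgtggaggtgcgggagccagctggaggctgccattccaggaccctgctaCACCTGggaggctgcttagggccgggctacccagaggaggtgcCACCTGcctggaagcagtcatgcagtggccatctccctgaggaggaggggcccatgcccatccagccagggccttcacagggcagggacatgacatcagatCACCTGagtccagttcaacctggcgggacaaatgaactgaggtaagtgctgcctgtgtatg
Grhl3 (chr4:135573583-135573882, minus strand): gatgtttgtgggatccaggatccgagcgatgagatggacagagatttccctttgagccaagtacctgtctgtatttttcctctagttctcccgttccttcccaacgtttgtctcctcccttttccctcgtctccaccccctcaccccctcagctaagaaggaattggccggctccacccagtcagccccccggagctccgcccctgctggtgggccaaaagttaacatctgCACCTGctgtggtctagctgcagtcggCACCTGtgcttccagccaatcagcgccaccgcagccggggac
Ovol2 (chr2:144331313-144331612, minus strand): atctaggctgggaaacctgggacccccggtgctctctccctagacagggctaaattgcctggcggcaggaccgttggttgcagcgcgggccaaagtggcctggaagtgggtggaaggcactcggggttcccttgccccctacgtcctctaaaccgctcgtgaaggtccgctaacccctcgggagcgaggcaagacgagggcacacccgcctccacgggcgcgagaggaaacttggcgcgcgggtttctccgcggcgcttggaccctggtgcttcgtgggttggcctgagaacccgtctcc

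The E-box of Elf3 starts at base 111 of its window, those of Elf5 at bases 96, 139 and 240, and those of Grhl3 at bases 232 and 259. The Ovol2 window holds no match of the 5 motifs.

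The comparison of the labels asked which of the 10 regulators differ between cells sorted from Rhox10-null testes and from those of littermates. Ehf, Elf3, Grhl2 and Esrp1 were higher with the KO label, by 2.93, 1.65, 1.32 and 1.44-fold, and no member was lower. Elf5, Grhl1, Grhl3, Esrp2 and Ovol1 did not pass the test, and Ovol2 had too few reads to be tested with the other genes. Calls were made with edgeR's quasi-likelihood test, where the p adjusted for all tested genes (Benjamini-Hochberg) was under 0.05. Among all 23190 genes 5.14% were called, 2.35% higher and 2.8% lower with the KO label, against 4 higher and 0 lower of the 9 members tested. Because the members were chosen with earlier results known, this and the later comparisons of the group with all genes describe it and do not test it. Scaled by library totals alone, 426 genes were higher and 836 lower in place of 544 and 649, and 3 members were called. DESeq2 and limma voom also called 3, and Grhl2 was the member missing each time.

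**Figure D1:**
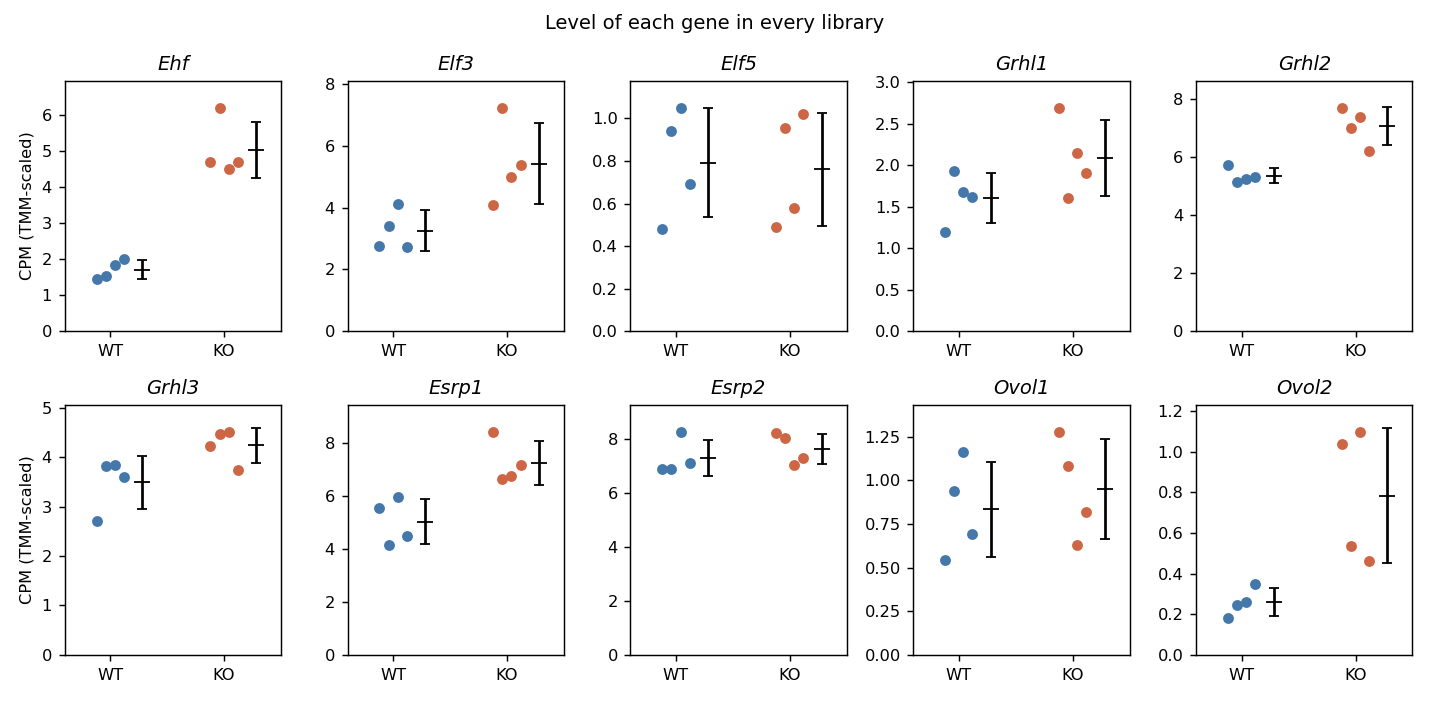
TMM-scaled CPM of the 10 regulators in the 4 libraries labelled WT (blue) and the 4 labelled KO (orange), with the mean and SD as black bars; each panel has its own axis, which starts at 0. The groups are apart for Ehf, Grhl2, Esrp1 and Ovol2 and overlap for the others.

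Of the ETS genes, Ehf had the widest separation. Its CPM, the read count relative to the TMM-scaled library size, were 1.44, 1.54, 1.84 and 2.02 in WT replicates 1 to 4. They were 4.71, 6.21, 4.52 and 4.71 in KO replicates 1 to 4. Every library labelled KO thus stood well above the highest labelled WT, and KO replicate 2 was above the other libraries of its group. The counts behind these levels were 24 to 35 and 77 to 104. The mean rose from 1.71 ± 0.269 to 5.04 ± 0.790 CPM (SD, n = 4; log2 fold change 1.55, standard error 0.18, edgeR adjusted p = 4.31e-13). By fold change Ehf ranked 33 among the 544 genes called higher.

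Elf3, which encodes a closely related ETS factor of gut and other simple epithelia, was at 2.77, 3.42, 4.11 and 2.72 CPM with the WT label. It was at 4.10, 7.23, 4.99 and 5.38 CPM with the KO label. The groups overlapped by a narrow margin, since WT replicate 3 was marginally above KO replicate 1, and KO replicate 2 was again the highest. Elf3 rose from 3.25 ± 0.652 to 5.42 ± 1.32 CPM (log2 fold change 0.73, standard error 0.16, edgeR adjusted p = 3.26e-04). Without KO replicate 2 the change was 0.56, with an edgeR adjusted p of 0.0329.

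Elf5, next to Ehf on chromosome 2, had only 8 to 20 counts in a library. Its CPM were 0.481, 0.942, 1.05 and 0.694 with the WT label and 0.489, 0.956, 0.578 and 1.02 with the KO label. The ranges of the groups lay on top of each other, with means of 0.792 ± 0.256 and 0.762 ± 0.268 CPM (log2 fold change -0.07, standard error 0.35, edgeR adjusted p = 0.962). The sign of this value turned when any of 4 libraries was left out. The nearest coding genes on either side of the 10 members were looked at after these values were seen. Of 18 that are not members 16 were tested, and edgeR called 2, against 5.14% of all genes. Kat14, beside Ovol2, rose from 35.6 ± 2.24 to 41.3 ± 0.773 CPM (0.21, edgeR adjusted p = 0.00391), and Snx32, beside Ovol1, fell from 24.9 ± 1.17 to 19.2 ± 0.791 CPM (-0.37, edgeR adjusted p = 1.64e-05). Beside Ehf, Elf3, Grhl2 and Esrp1, 6 of 7 neighbours were tested and 0 were called by edgeR, DESeq2 or limma voom, and 0 had an unadjusted p under 0.05.

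**Figure D2:**
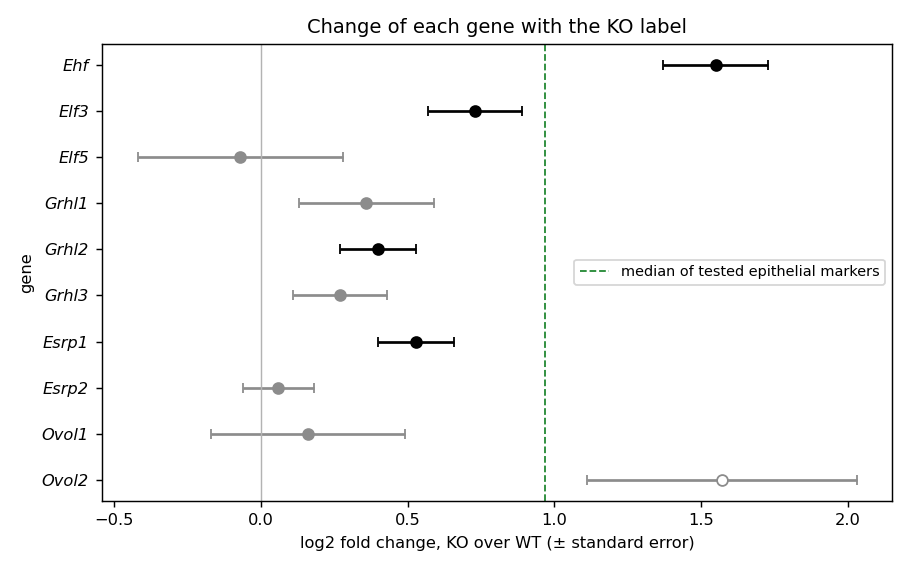
Log2 fold change of each regulator, KO over WT, with its standard error. Black points were called, grey points were not, and the open point of Ovol2 (1.57) comes from a fit without a filter on low counts. The dashed line is the median of the tested epithelial markers, 0.97, from the filtered fit, and Ehf (1.55, standard error 0.18) lies above it. The point of Ovol2 is also above the line, but has a standard error of 0.46 and rests on 3 to 21 counts in a library.

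Among the Grainyhead-like genes, Grhl2 rose and all 3 had a higher mean with the KO label. Grhl2, known for its control of Cdh1 and claudin genes, was at 5.72, 5.15, 5.26 and 5.32 CPM with the WT label and at 7.70, 6.99, 7.40 and 6.20 with the KO label. All 4 libraries labelled KO were above all 4 labelled WT. The means were 5.36 ± 0.246 and 7.07 ± 0.652 CPM (log2 fold change 0.40, standard error 0.13, edgeR adjusted p = 0.0411). This call was near the threshold and was lost without any of 6 libraries, KO replicate 1 among them (0.36, adjusted p = 0.134), and with DESeq2 (0.0924), limma voom (0.0534), library totals (0.0535) or no filter (0.0738). The size of the change stayed between 0.36 and 0.46 over all alternatives.

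Grhl1, whose protein acts in skin and hair anchorage through desmosomal genes, was at 1.20, 1.93, 1.68 and 1.62 CPM with the WT label and 2.69, 1.61, 2.15 and 1.90 with the KO label. KO replicate 2 lay inside the range of the libraries labelled WT (log2 fold change 0.36, standard error 0.23, edgeR adjusted p = 0.486). Grhl3, a gene of the epidermal barrier, was at 2.71, 3.82, 3.84 and 3.59 CPM and at 4.22, 4.48, 4.52 and 3.74 CPM. KO replicate 4 fell inside the range of the WT label (log2 fold change 0.27, standard error 0.16, edgeR adjusted p = 0.427). For both genes the value was positive in each of 16 alternatives, with adjusted p from 0.376 to 0.775.

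The splicing regulators differed in their values. Esrp1 was at 5.54, 4.16, 5.95 and 4.51 CPM with the WT label and at 8.44, 6.63, 6.77 and 7.17 with the KO label, without overlap. It rose from 5.04 ± 0.841 to 7.25 ± 0.821 CPM (log2 fold change 0.53, standard error 0.13, edgeR adjusted p = 0.00285), and this call held in each of 16 alternatives (highest adjusted p 0.0438). Esrp2, whose protein shares targets with that of Esrp1, was at 6.86, 6.89, 8.26 and 7.11 CPM and at 8.19, 8.01, 7.04 and 7.28 CPM. The highest library of all was WT replicate 3, and the log2 fold change was 0.06 with a standard error of 0.12 (edgeR adjusted p = 0.875).

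Ovol1 and Ovol2 were the scarcest pair besides Elf5. Ovol1 was at 0.542, 0.942, 1.16 and 0.694 CPM with the WT label and 1.28, 1.08, 0.630 and 0.820 with the KO label, with wide overlap (log2 fold change 0.16, standard error 0.33, edgeR adjusted p = 0.890). Ovol2 had 3, 5, 5 and 6 counts with the WT label and 17, 9, 21 and 9 with the KO label. Its levels were apart, at 0.181 to 0.347 and 0.461 to 1.10 CPM, but Ovol2 missed the filter on low counts. In a fit without that filter its log2 fold change was 1.57 with a standard error of 0.46 (edgeR adjusted p = 0.0386 over 45095 genes, of which 0.982% were called higher). That call was lost when any of 5 libraries was left out, with adjusted p up to 0.28 without KO replicate 3. With Ovol2, 4 of the 10 members did not overlap between the groups with the KO label above; of the 9 members tested 3 did so, against 4.72% of all tested genes.

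Levels of different genes were compared per kilobase of exonic length, as RPKM. With the WT label Esrp2 was highest at 1.68 ± 0.153 RPKM (SD, n = 4), followed by Elf3 at 1.47 ± 0.294 and Grhl3 at 1.25 ± 0.191, neighbours whose ranges overlapped. Esrp1 at 0.799 ± 0.133 and Grhl2 at 0.623 ± 0.0285 followed below a gap, and after a second gap came Ehf at 0.307 ± 0.0482, Grhl1 at 0.291 ± 0.0546, Ovol1 at 0.239 ± 0.0779, Elf5 at 0.135 ± 0.0435 and Ovol2 at 0.123 ± 0.0324. Each of these last 5 overlapped the next. With the KO label Elf3 led at 2.45 ± 0.595 RPKM, overlapping Esrp2 at 1.76 ± 0.129. Ehf, at 0.904 ± 0.142, stood between Esrp1 (1.15 ± 0.130) and Grhl2 (0.821 ± 0.0757), whose ranges it overlapped, where with the WT label it had been below both. Elf5 was lowest at 0.130 ± 0.0456, below the range of Ovol1.

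**Figure D3:**
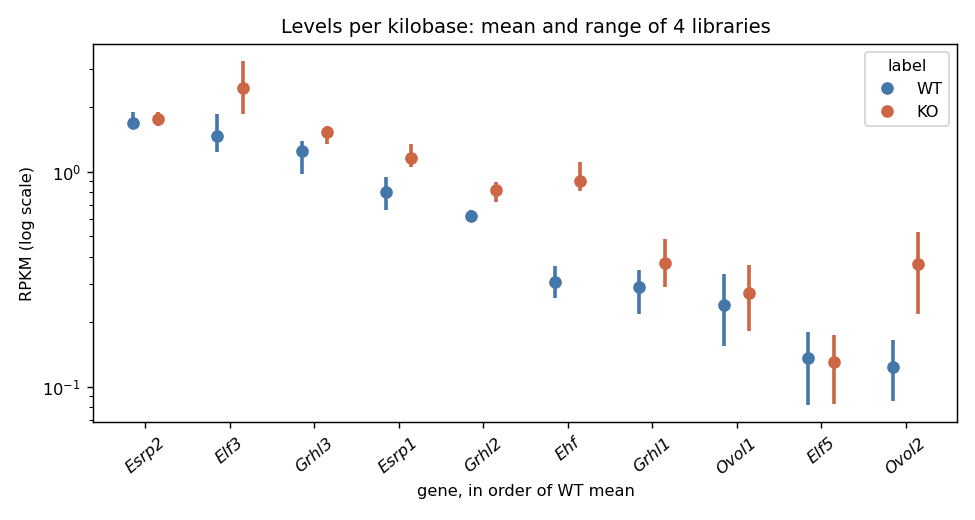
Level per kilobase (RPKM, log scale) of each regulator, in the order of the WT mean; points are means and lines the range of the 4 libraries labelled WT (blue) and KO (orange). Ehf moves from the low group, at 0.307, to 0.904, beside Esrp1 and Grhl2.

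The summed level of all 10 regulators was 27.4 to 33.4 CPM under the WT label and 38.7 to 43.7 under the KO label. These sums rested on 456 to 756 counts in a library, and the ratio of their means was 1.39. The median log2 fold change of the 9 tested members was 0.36, while that of all tested genes was 0.002.

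Whether related genes changed unequally was tested by their ratio within a library, which needs no scaling. The 7 pairs of tested members from 1 family were compared by an exact two-sided permutation test over the 70 splits, in which 4 against 4 libraries cannot give a p below 0.0286. The log2 ratio of Ehf to Elf3 went from -0.91 ± 0.34 under the WT label to -0.09 ± 0.19 under the KO label (SD, n = 4). It was higher in every library labelled KO, by 0.82 with a standard error of 0.20 (exact p = 0.0286, adjusted over the 7 pairs 0.0667). Ehf to Elf5 went from 1.13 ± 0.45 to 2.73 ± 0.43, a difference of 1.60 with a standard error of 0.31 (exact p = 0.0286, adjusted 0.0667). Esrp1 to Esrp2 went from -0.54 ± 0.19 to -0.08 ± 0.14, a difference of 0.46 with a standard error of 0.12 (exact p = 0.0286, adjusted 0.0667). In these 3 pairs the groups did not overlap, so each had the smallest p that this test can give. Adjusted over the 7 pairs that p was 0.0667, so even full separation of these 3 pairs could not pass. The missed threshold therefore decides nothing about them, and pairs that share a gene are not independent.

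The ratio of Elf3 to Elf5 differed by 0.78 with a standard error of 0.21 and overlapped between the groups (exact p = 0.0571, adjusted 0.0999). The 3 ratios among the Grainyhead-like genes differed by -0.03, 0.08 and 0.10, with standard errors of 0.21, 0.17 and 0.16 (exact p from 0.543 to 0.886). Without WT replicate 1 the ratio of Grhl2 to Grhl3 differed by 0.25 (exact permutation p adjusted over the pairs 0.05, not under the threshold). The call of Grhl2 and the missed calls of Grhl1 and Grhl3 were thus not shown to be different responses.

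**Figure D4:**
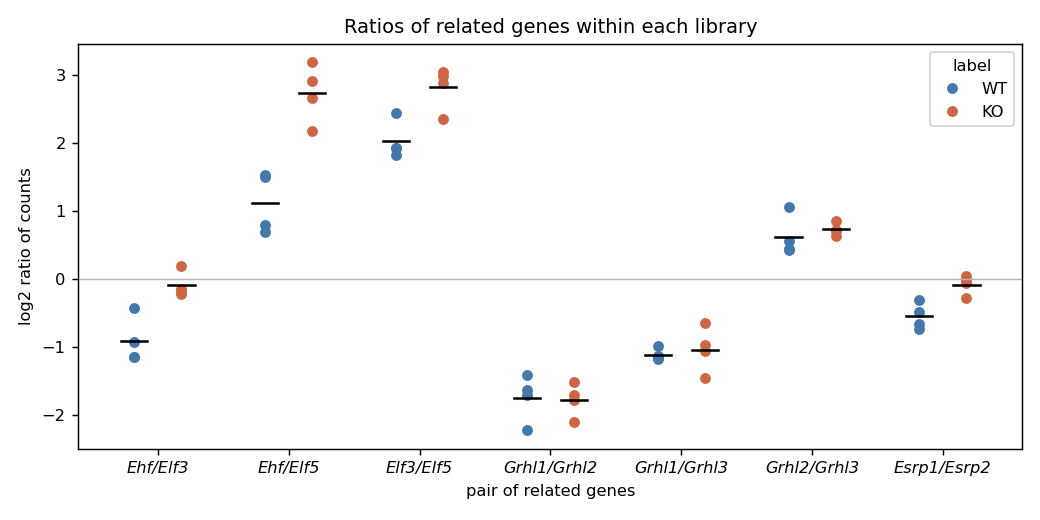
Log2 ratio of the counts of 2 related genes in each library labelled WT (blue) and KO (orange), with the mean as a black line. The ratios of Ehf to Elf3, Ehf to Elf5 and Esrp1 to Esrp2 do not overlap between the labels, while those among Grhl1, Grhl2 and Grhl3 do.

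Other genes of the same pathways were read from lists, beside 2.35% of all tested genes called higher and 2.8% called lower. Of 20 tested epithelial genes known to lie downstream of Grainyhead-like factors, 7 rose, 0 fell and 13 did not pass, with a median log2 fold change of 0.24. Epcam, an adhesion molecule gene of epithelia, rose from 8.67 ± 0.121 to 16.2 ± 2.02 CPM (0.90, edgeR adjusted p = 2.14e-16). Cdh1, which encodes E-cadherin, rose from 5.92 ± 0.628 to 11.6 ± 0.911 CPM (0.97, edgeR adjusted p = 6.79e-14). The claudin genes Cldn3 and Cldn4, of tight junctions, rose by 2.26 and 1.35 on the log2 scale (edgeR adjusted p = 4.99e-06 and 7.48e-05), Cldn3 from 0.269 ± 0.178 to 1.33 ± 0.754 CPM. Without KO replicate 1, 6 of this list were higher.

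Of 22 listed transcription factors of other epithelia 15 were tested, of which 6 rose, 0 fell and 9 did not pass (median 0.32). Trp63, picked after its values were seen, was at 1.24 ± 0.325 and 0.646 ± 0.43 CPM with overlap (-0.96, edgeR adjusted p = 0.0814). Among those too scarce to be tested, the summed counts with the WT and KO labels were 38 and 16 for Tfap2a. They were 39 and 16 for Foxa1, and 6 and 26 for Irx1. Hnf4a, a factor of liver, gut and proximal tubule, rose by 2.41 on the log2 scale and Pax8, a factor of kidney and thyroid, by 1.09 (edgeR adjusted p = 4.55e-09 and 2.86e-14). Emx2, a homeobox gene of the urogenital system, rose from 23.7 ± 2.52 to 29.4 ± 1.73 CPM (0.30, edgeR adjusted p = 2.41e-04). The count was 6 without KO replicate 1 too, with 1 gene of the list then lower.

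The factors that oppose epithelial genes did not pass the test. Of 6 tested EMT (epithelial-mesenchymal transition) factors 0 were called by edgeR, DESeq2 or limma voom. The 1 gene with an unadjusted p under 0.05, against 15.6% of all tested genes, was Twist2, named after its values were seen. It was at 1.04 ± 0.337 and 1.76 ± 0.171 CPM, higher in all 4 libraries labelled KO (0.76, edgeR adjusted p = 0.0820). Zeb1, a target of Ovol2 repression, was at 169 ± 6.27 and 164 ± 2.55 CPM (log2 fold change -0.04, edgeR adjusted p = 0.587), and Zeb2 at 443 ± 5.41 and 440 ± 9.47 CPM (-0.01, edgeR adjusted p = 0.872). Per kilobase, Zeb1 at 16.4 ± 0.611 RPKM and Zeb2 at 21.9 ± 0.268 RPKM were above every one of the 10 regulators with the WT label.

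None of the listed ETS and CP2 relatives passed the test. Of 21 other ETS genes 0 were called by edgeR, DESeq2 or limma voom (median 0.02), and 4 had an unadjusted p under 0.05, which 15.6% of all tested genes had. Of these 4, named after their values were seen, Ets1, Etv5 (0.15) and Fli1 were higher with the KO label and Spdef was lower. Fli1 was at 5.10 ± 0.308 and 6.64 ± 0.704 CPM without overlap (0.38, edgeR adjusted p = 0.0637). Spdef, an ETS gene of secretory epithelia, was at 0.949 ± 0.419 and 0.479 ± 0.161 CPM with overlap (-1.01, edgeR adjusted p = 0.108). Among the most abundant, Gabpa, a widely expressed ETS gene, was at 62.3 ± 2.78 and 62.5 ± 0.354 CPM (0.01, edgeR adjusted p = 0.975) and Ets1 at 59.4 ± 2.33 and 64.9 ± 2.36 (0.13, edgeR adjusted p = 0.0572). Of the 3 other genes of the CP2 family, to which Grainyhead-like genes are related, 0 were called by the 3 tools and 0 had an unadjusted p under 0.05. Ubp1 was at 91.8 ± 3.32 and 94.2 ± 2.93 CPM and Tfcp2 at 32.0 ± 1.06 and 33.4 ± 1.36 (edgeR adjusted p = 0.686 and 0.679).

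Of 20 other regulators of alternative splicing, 1 rose: Ptbp2, a polypyrimidine tract binding protein gene, from 93.4 ± 3.11 to 101 ± 3.14 CPM (0.12, edgeR adjusted p = 0.0273), a call that DESeq2 did not make and that was lost without KO replicate 1. Of 15 genes with exons that ESRP proteins regulate, Grhl1 among them, 0 were called at the level of the gene by edgeR, DESeq2 or limma voom. An unadjusted p under 0.05 was found for 4 of them, and for 15.6% of all tested genes. Named after their values were seen, Fgfr2 (0.10) and Magi1 (0.07) were higher with the KO label, and Rac1 (-0.11) and Dnm2 (-0.11) lower. Fgfr2 was at 115 ± 1.77 and 123 ± 4.63 CPM, higher in all 4 libraries labelled KO (edgeR adjusted p = 0.0537). The most abundant genes of the list were flat. Enah, an actin regulator gene, was at 215 ± 3.42 and 216 ± 4.66 CPM and Mapk8ip3, a scaffold gene of JNK signalling, at 195 ± 2.31 and 192 ± 3.11 (edgeR adjusted p = 0.927 and 0.757). Counts per gene do not show which exon was used.

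Each list of cell type markers held genes called between the labels, where 2.35% of all tested genes were called higher and 2.8% lower. Of 17 tested epithelial markers 14 rose and 0 fell, with a median log2 fold change of 0.97, and their summed level was 62.5 to 67.6 CPM with the WT label and 122 to 135 with the KO label. Blood markers were lower in 6 of 11, at sums of 241 to 256 and 103 to 111 CPM. Of that sum 4 globin genes made up 194 to 208 and 66.5 to 71.8 CPM. The other blood markers were lower in 2 of 7, at 47.5 to 48.5 and 36.7 to 39.8 CPM. Leydig markers were lower in 4 of 7 (2880 to 2920 and 2620 to 2670 CPM), and Sertoli markers in 3 of 11 (970 to 1010 and 937 to 954 CPM). Endothelial markers were higher in 2 of 9 (196 to 210 and 222 to 226 CPM). Mesenchymal markers were lower in 1 of 12 (9270 to 9360 and 8990 to 9230 CPM). Germ cell markers were higher in 3 and lower in 2 of 11, with overlapping sums of 147 to 161 and 144 to 157 CPM. No marker of these lists was at 0 in all libraries. The part of the epithelial or other cells in the values of the 10 regulators was not tested. The epithelial marker and Grainyhead-like target lists share 6 genes, the epithelial marker and epithelial factor lists share 3, and all lists were put together with earlier results of these libraries known.

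**Figure D5:**
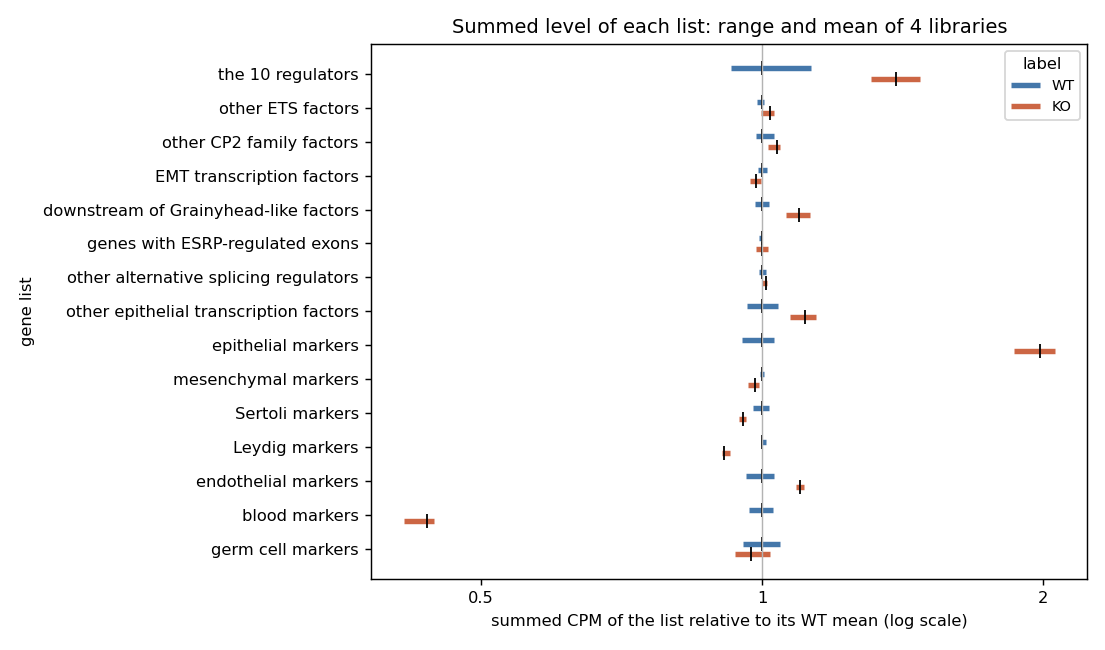
Summed CPM of each gene list relative to its mean with the WT label (log scale); bars span the 4 libraries labelled WT (blue) or KO (orange) and ticks are means. The 10 regulators (1.39 times) lie between the targets of Grainyhead-like factors (1.10 times) and the epithelial markers (1.98 times), and blood markers are lowest (0.437 times, and 0.799 times without the 4 globin genes, not drawn). A sum weighs abundant genes most: of the 451 CPM of the Grainyhead-like targets with the WT label, Dsp held 209 (1.08-fold) and Cgn 111 (1.02-fold).

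The profiles most like those of the 4 called members were found among 15269 protein-coding genes by the root mean square difference of log2 CPM over the 8 libraries, each gene taken relative to its WT mean. Nearest to Ehf were Adgrg2, a receptor gene of the efferent ducts (0.225), Gfra1, a GDNF co-receptor gene (0.250), and B4galnt2, a glycosyltransferase gene (0.256). Adgrg2 went from 2.24 ± 0.372 to 5.70 ± 0.416 CPM. Nearest to Elf3 was Krt19, a keratin gene of simple epithelia (0.124), at 4.35 ± 0.953 and 7.05 ± 0.927 CPM, then Hoxa2 (0.182) and Tagln3 (0.192). Hoxa2 and Tagln3 did not pass the test (edgeR adjusted p = 0.559 and 0.262). Nearest to Grhl2 were Nup210, a nuclear pore gene (0.0672), Dffb (0.0701) and 4930447C04Rik (0.0801), of which Dffb did not pass (edgeR adjusted p = 0.105). Nearest to Esrp1 were Arhgef37 (0.115), Bcl6 (0.123) and Faah (0.125), none of which passed the test. The nearest gene of each member was a different one. Because the distance includes the size of the change, which differed among the members, this does not set their profiles apart. Scarce genes also have noisy profiles.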

How the data were processed

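Germ cells sorted from fetal mouse testis gave 4 libraries labelled WT and 4 labelled KO, made from 1 ng of total RNA with a SMARTer stranded pico kit, per the labels' protocols. The authors deposited raw counts per gene, with exonic lengths, per the file headers. The submitters' processing notes name STAR 2.5.2b, Subread, featureCounts, DESeq2 and GRCm38, without roles or settings. No column lay outside the 8 libraries. GENCODE M21 gave symbols for 55141 of 55487 IDs.

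Counts were tested in R 4.3.3 with edgeR 4.0.16 (filterByExpr, TMM, robust quasi-likelihood test, two-sided, no block), fitted on the whole table and adjusted by Benjamini-Hochberg over all genes tested. Standard errors are the log2 fold change divided by the root of its F. CPM and RPKM use TMM-scaled sums of the tested genes; RPKM divides by the deposited exonic length. Paralog ratios used a pseudocount of 0.5, and profiles a prior count of 2. The test was also run on simulated counts, and the outcome is not given here. DESeq2 1.42.0 and limma 3.58.1 served as alternatives. No 2 libraries of a group agreed within sampling noise (chi-squared per degree of freedom 1.68 to 3.60). Precision is limited by counts of 3 to 157 per member and library, and these are reads, not independent molecules.

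Genes named besides the members were, from each pathway list, up to 4 called genes by smallest p, or the 2 most abundant where none was called, and the 3 nearest profiles with a mean of at least 0.5 CPM. One gene that this rule names is not reported here. The members and lists were chosen with earlier results of these data known.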

Additional observations from a re-analysis of the deposited data

Results flagged for a closer look

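With 4 libraries in a group, a library was marked where its gap to the nearest other library passed Dixon's 95% critical value, as a share of the group's range; 2 of 34 groups were marked, and chance marks about 5% of groups. Ehf in KO replicate 2 was at 6.21 CPM, against 4.52 to 4.71 in the other libraries labelled KO, a gap of 0.883 of the range. Without that library the log2 fold change of Ehf was 1.44 (edgeR adjusted p = 2.07e-09). The log2 ratio of Elf3 to Elf5 in WT replicate 1 was 2.45, the highest with the WT label, at a gap of 0.833 of the range, and rested on 46 and 8 counts.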

How the results depend on the processing

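The calls of Ehf (1.44 to 1.63), Elf3 (0.56 to 0.86) and Esrp1 (0.44 to 0.62) held under all 16 alternatives, and 3 or 4 members were called in each, Ovol2 counted where it passed the filter. DESeq2 called 785 genes in place of 1193, with 412 lower in place of 649; leaving out 1 library gave 898 to 1040. Grhl2 was not called with library totals (0.38), no filter (0.40), DESeq2 (0.40) or limma voom (0.39), and ranged from 0.36 to 0.46 with 1 library left out. Leaving out 1 library gave -0.25 to 0.10 for Elf5, -0.01 to 0.35 for Ovol1 and 1.35 to 1.76 for Ovol2. It gave -0.19 to 0.08 for the ratio of Grhl1 to Grhl2, -0.05 to 0.22 for Grhl1 to Grhl3 and 0.04 to 0.25 for Grhl2 to Grhl3. The cause of these differences was not tested. DESeq2 and limma voom were not run without a filter, so they give no value for Ovol2.

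The labels do not say what same-numbered libraries of the groups share. Correlations of their deviations were -0.014 to 0.023 over 17591 genes, and no WT library correlated best with its own number. These values do not exclude a weak pairing. With the replicate block 1249 genes were called, and the members called were 4; Ovol2 was not called (1.52, edgeR adjusted p = 0.0544). Paired sign flips of the ratios cannot give a p below 0.125. Added after the data were seen, 5 of 28 list counts changed without KO replicate 1: 6 Grainyhead-like targets were higher in place of 7, 3 germ cell markers were lower in place of 2, 0 splicing regulators were higher in place of 1, 1 other epithelial factor was lower in place of 0, and 2 mesenchymal markers were lower in place of 1. Members with under 25 counts per library, Elf5, Ovol1 and Ovol2, are limited by depth.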
